A study of Mus musculus with 8 samples.

Results

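The levels of 5-hydroxymethylcytosine (5hmC) inside 4 mouse genes for synaptic and axonal adhesion molecules, Nrxn2, Nrxn3, Nlgn1 and Cntnap2, were followed after induction of the TET3 catalytic domain. A CpG call was counted for a gene when its position lay inside the gene's span in the GRCm38.p6 gene table. This gave 1431 of 1849087 calls, or 0.0774%, on 837 reads, and 199 of the 1431 were undeaminated. The 4 genes are among 49993 in that table.

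All libraries were made from mouse ESCs (embryonic stem cells) in which Tet1, Tet2 and Tet3 are inactivated and which carry a doxycycline-inducible TET3 catalytic domain, delivered with a PiggyBac transposon and linked to an mCherry reporter. The cells were kept with 50 µg/ml ascorbate and were left untreated (0 h, 3 libraries, A, B and C) or given 1 µM doxycycline for 6 h (2 libraries, A and B) or 12 h (3 libraries, A, B and C). The untreated cells therefore carry the same deletions and the same transgene, and all libraries derive from 1 rescued line with an isolated catalytic domain instead of the full-length enzyme. The labels do not say whether libraries of a time came from separate cultures, so p-values measure the spread between these libraries, which may be technical. In ACE-seq, 5hmC is glucosylated and thereby protected, while cytosine and 5-methylcytosine are deaminated by APOBEC3A, so an undeaminated call marks 5hmC plus the background of the assay. The level is the percentage of calls that are undeaminated. A library held 75023 to 485941 calls, and its level averaged 1.13 ± 0.199% at 0 h (SD, n = 3), 6.42 ± 0.212% at 6 h (n = 2) and 24.1 ± 2.36% at 12 h (n = 3).

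TET enzymes oxidise 5-methylcytosine to 5hmC, a mark that is abundant in the bodies of neuronal genes in brain. Neurexins are presynaptic receptors made as long alpha forms and as shorter beta forms from an internal promoter, and neuroligins are their best-known postsynaptic ligands. Cntnap2 encodes Caspr2, a distant relative of the neurexins that holds voltage-gated potassium channels in place along myelinated axons. These proteins are known for work in neurons, and DNA calls give no view of their expression in the stem cells, nor of marker genes that would check the cell type.

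Nrxn3 spans chr12:88722701-90334935 on the plus strand, Nlgn1 spans chr3:25421808-26332866 on the minus strand, and Cntnap2 spans chr6:45060061-47301393 on the plus strand. Nrxn2 spans chr19:6418756-6533217, and its strand was not used. Exons and introns were not told apart, so each value is over the whole gene body. No protein-coding gene overlaps a member in the table, but non-coding genes and pseudogenes do: 10 in Cntnap2, 2 each in Nrxn2 and Nlgn1, and 1 in Nrxn3.

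The annotated starts of Nrxn3, Nlgn1 and Cntnap2 show how much CpG sequence the assay could have read there. RefSeq promoter windows (GRCm38.p6, 250 bases before to 50 after the start) were matched for these 3 genes, 7 windows in all, and not for Nrxn2. The richest window of each gene is printed 5′ to 3′ on the gene's strand, with every CpG in capitals: the internal Nrxn3 start at chr12:89812233-89812532, the Nlgn1 start at chr3:26331860-26332159 and the Cntnap2 start at chr6:45059811-45060110.
Nrxn3 internal start: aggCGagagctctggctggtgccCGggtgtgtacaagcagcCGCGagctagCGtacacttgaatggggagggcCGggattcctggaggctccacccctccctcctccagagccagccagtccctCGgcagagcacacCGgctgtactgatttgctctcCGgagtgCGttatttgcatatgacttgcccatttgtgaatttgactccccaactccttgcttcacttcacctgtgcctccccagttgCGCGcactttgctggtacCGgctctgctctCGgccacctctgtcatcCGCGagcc
Nlgn1 start: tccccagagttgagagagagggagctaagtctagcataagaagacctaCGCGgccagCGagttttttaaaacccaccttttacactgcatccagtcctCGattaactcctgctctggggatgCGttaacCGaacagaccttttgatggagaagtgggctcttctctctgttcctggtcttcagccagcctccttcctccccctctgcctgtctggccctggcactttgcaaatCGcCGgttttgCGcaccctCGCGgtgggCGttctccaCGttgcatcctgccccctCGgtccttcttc
Cntnap2 start: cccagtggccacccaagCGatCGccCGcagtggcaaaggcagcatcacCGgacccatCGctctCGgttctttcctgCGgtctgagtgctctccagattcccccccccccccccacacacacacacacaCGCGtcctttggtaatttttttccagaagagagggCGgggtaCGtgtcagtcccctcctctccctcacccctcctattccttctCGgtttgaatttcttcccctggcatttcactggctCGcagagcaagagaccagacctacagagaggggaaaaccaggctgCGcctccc
The motif searched was CG, which reads the same on both strands and is held by 94.6% of the 32851 promoter windows in the table, with a median of 7 per window. The Nrxn3 window holds 16, and 33% of all windows hold as many. The Nlgn1 and Cntnap2 windows hold 14 each, which 36.3% of windows reach. None of the 7 windows received a single call in the 8 libraries, so the values that follow describe the gene bodies and not these starts. Within 1 kb of the internal Nrxn3 start, 67.6% of the way along the span, lay 18 calls on 5 reads, of which 0 of 4 were undeaminated in the untreated libraries, 0 of 4 in the 6 h libraries and 1 of 10 in the 12 h libraries.

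Nrxn3, a presynaptic receptor for neuroligins and for other postsynaptic ligands, had 1 of 47, 0 of 21 and 2 of 18 calls undeaminated in the untreated libraries A, B and C. It had 1 of 12 and 7 of 82 in the 6 h libraries, and 25 of 112, 31 of 117 and 5 of 42 in the 12 h libraries A, B and C. As levels these are 2.13, 0 and 11.1% at 0 h, 8.33 and 8.54% at 6 h, and 22.3, 26.5 and 11.9% at 12 h. The 12 h libraries lay above the untreated ones, but 12 h library C exceeded untreated library C by less than 1 percentage point, and both undeaminated calls of untreated library C sat on 1 read. The level averaged 4.41 ± 5.90% at 0 h (SD, n = 3), 8.44 ± 0.144% at 6 h (n = 2) and 20.2 ± 7.51% at 12 h (n = 3). It rose by 1.32 points per hour (two-sided exact permutation test of the slope over the 8 libraries, p = 0.0179, Benjamini-Hochberg adjusted p = 0.0222). This call was lost when any of 4 libraries was left out: the exact permutation adjusted p was 0.0597 without untreated library A, 0.0606 without untreated B, 0.0616 without 6 h B and 0.0513 without 12 h B.

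Nrxn2, the shortest of the 4 genes at 114462 bases and also a presynaptic receptor, had 0 of 36, 1 of 33 and 0 of 27 calls undeaminated at 0 h. It had 0 of 2 and 3 of 62 at 6 h, and 14 of 45, 16 of 63 and 9 of 34 at 12 h. The 12 h levels, 31.1, 25.4 and 26.5%, all lay above the untreated levels of 0, 3.03 and 0%, with no overlap. Over all calls the 12 h and untreated libraries did not overlap either, at 22.3 to 26.8% against 0.899 to 1.26%. The level averaged 1.01 ± 1.75% at 0 h, 2.42 ± 3.42% at 6 h and 27.7 ± 3.04% at 12 h. The first 6 h value rests on 2 calls, and Nrxn2 was therefore not tested.

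Nlgn1, the neuroligin best known from excitatory synapses, had no undeaminated call in the untreated libraries, 0 of 55 calls in all, which allows a level of up to 5.45%. It had 2 of 17 and 4 of 39 at 6 h, or 11.8 and 10.3%, and 5 of 45, 9 of 58 and 2 of 12 at 12 h, or 11.1, 15.5 and 16.7%. The 6 h and 12 h ranges overlapped, and both lay above the untreated libraries, as treated libraries did over all calls. The mean difference between 12 h and 6 h was 3.42 points in Nlgn1 and 17.7 points in the libraries as a whole. Untreated library B held 8 Nlgn1 calls, so the gene passed only a minimum of 5 calls in every library, where it rose by 1.20 points per hour (exact permutation p = 0.00714, adjusted p = 0.0226 over 1027 genes).

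Cntnap2, the longest at 2241333 bases, also had no undeaminated call at 0 h, 0 of 100, which allows up to 3%. It had 5 of 27 and 5 of 64 at 6 h, or 18.5 and 7.81%, and 15 of 95, 24 of 104 and 13 of 62 at 12 h, or 15.8, 23.1 and 20.97%. The level of 6 h library A lay between those of the 12 h libraries, while 6 h library B lay below all of them. Cntnap2 rose by 1.66 points per hour (exact permutation p = 0.00714, adjusted p = 0.0148), with means of 0% at 0 h, 13.2 ± 7.57% at 6 h (SD, n = 2) and 19.9 ± 3.75% at 12 h (n = 3).

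**Figure D1:**
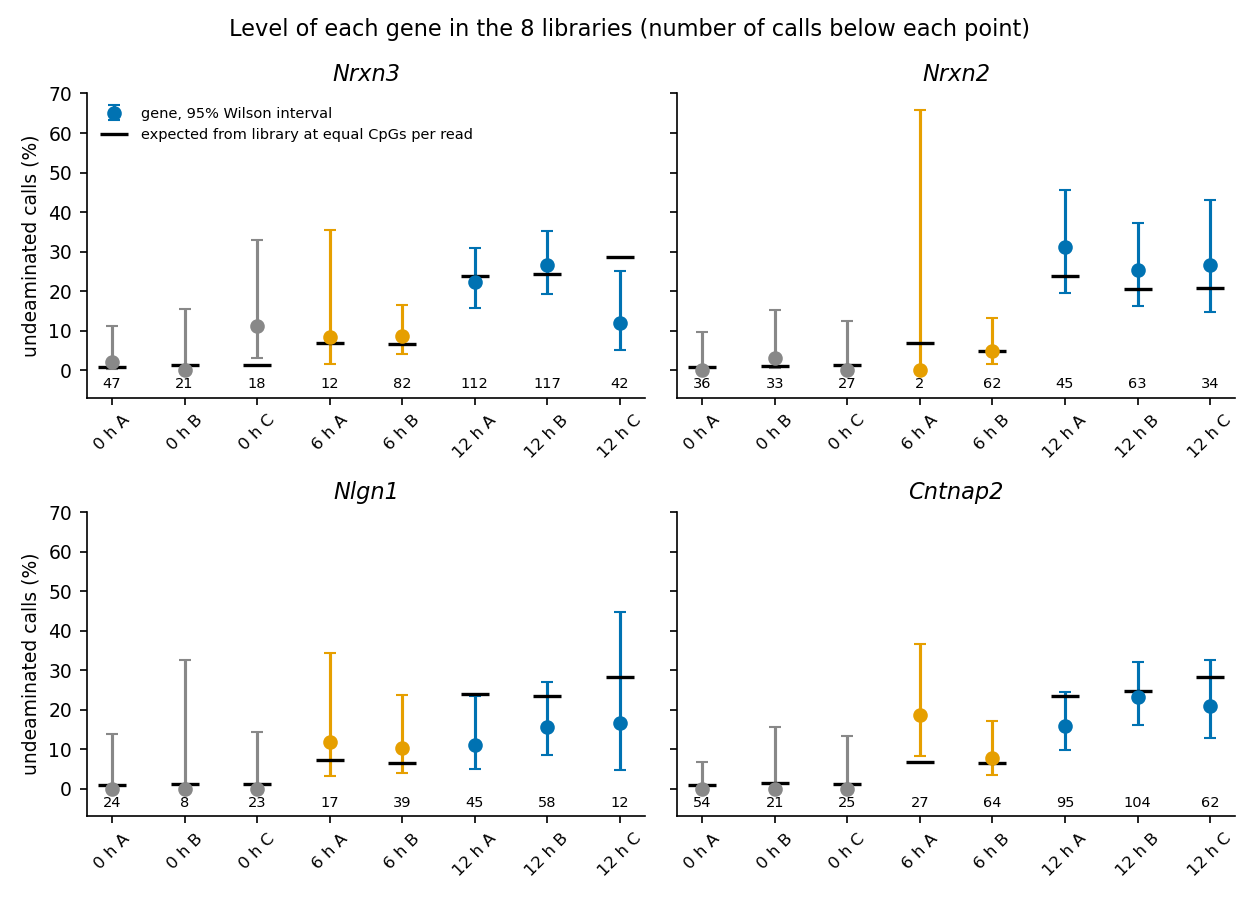
Percentage of undeaminated calls (y axis) of each gene in each of the 8 libraries (x axis), with 95% Wilson intervals, the number of calls below each point, and black bars for the level expected from the library at equal CpGs per read. Cntnap2 lies at 15.8 to 23.1% and Nlgn1 at 11.1 to 16.7% in the 12 h libraries, under the bars in all of them, while Nrxn2 lies over them.

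The rise of Nrxn3 and Cntnap2 was shared by most genes that could be tested: 331 of the 346 genes that reached 10 calls in each library, or 95.7%, passed the same test upward and none downward (none also at the 5-call minimum). The slope was 1.92 points per hour for the libraries as a whole and had a median of 2.02 over the 346 genes. At the 5-call minimum that admits Nlgn1, 883 of 1027 genes, or 86%, rose. By a limma test of the gain between 12 h and 0 h, 98.8% of the 346 genes were higher, Nrxn3 and Cntnap2 among them, although all genes of a library share its rise and this fit treats them as independent. The rises of Nrxn3, Cntnap2 and Nlgn1 are thus shared with most tested genes. In the order of their mean levels at 12 h, Nrxn2 was highest, followed by Nrxn3, Cntnap2 and Nlgn1. The ranges of neighbours in this order overlapped, while Nrxn2 (25.4 to 31.1%) overlapped neither Cntnap2 (15.8 to 23.1%) nor Nlgn1 (11.1 to 16.7%). These pairs were seen after ranking on the same values, are not matched for CpGs per read and were not tested.

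Over the 4 genes pooled, 4 of 337 calls were undeaminated in untreated libraries, 27 of 305 in the 6 h libraries and 168 of 789 in the 12 h libraries. The pooled level averaged 1.32 ± 0.772% at 0 h, 10.7 ± 4.31% at 6 h and 20.9 ± 2.21% at 12 h. By library it was 0.621, 1.20 and 2.15% at 0 h, 13.8 and 7.69% at 6 h, and 19.9, 23.4 and 19.3% at 12 h. All treated libraries lay above all untreated ones, as they did over all calls. Read names place the calls in 3 sequencing runs. The 12 h pooled share was 80 of 365 (21.9%) in run 2, against 0 of 148 at 0 h, and 85 of 376 (22.6%) in run 3, against 4 of 169 (2.37%) at 0 h. Run 1 held 3 of 48 (6.25%) at 12 h, against 0 of 20 at 0 h.

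The level of a library depends on how many CpGs a read covers, and the members differ in this. Reads of 1 to 3 CpGs carried 86.9% of the calls of Nrxn3, 84.5% of those of Cntnap2, 83.2% of those of Nlgn1 and 53.6% of those of Nrxn2, against 62.3% of all calls. Each gene was therefore set against the level expected if its calls had the level of calls from the same library with the same number of CpGs per read, in 7 classes. The observed minus the expected level is called the gap.

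At equal CpGs per read, Nlgn1 lay below its library in all 3 libraries at 12 h, with gaps of −12.8, −8.005 and −11.6 points and an observed level of 14.4 ± 2.93% against 25.2% expected. The Cntnap2 gap was −7.74, −1.58 and −7.39 points, with 19.9% observed against 25.5% expected. In 12 h library B, where this gap was smallest, Cntnap2 reads of 4 to 10 CpGs had 0 of 10 calls undeaminated. Its Cntnap2 reads of 1 to 3 CpGs had 24 of 94 (25.5%), against 25.9 ± 2.47% for such reads in the 12 h libraries. Both genes were above the expected level in both 6 h libraries, by a mean of 4.18 ± 0.663 points in Nlgn1 and 6.60 ± 7.48 points in Cntnap2 (SD, n = 2). The gaps of both genes at 12 h and at 6 h did not overlap. In 6 h library B, however, 3 of the 5 undeaminated Cntnap2 calls sat on the same read. Its Cntnap2 reads of 1 to 3 CpGs had 2 of 53 (3.77%), against 6.77 ± 0.153% for such reads in the 6 h libraries. The Cntnap2 excess in that library, and the lack of overlap in Cntnap2, thus rest on that read. Genes with both 6 h libraries above and all 12 h libraries below the expected level, a pattern chosen after its values were seen, made up 6 of 346 (1.73%) at the 10-call minimum and 20 of 1027 (1.95%) at the 5-call minimum.

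Nrxn2 lay on the other side, above its library by 7.18, 4.95 and 5.63 points at 12 h, with 27.7% observed against 21.7% expected. The excess in 12 h library A rests on reads of 4 to 10 CpGs, with 8 of 11 calls undeaminated. Its Nrxn2 reads of 1 to 3 CpGs had 6 of 34 (17.65%), against 25.9 ± 2.47% for such reads in the 12 h libraries. Of the 346 tested genes, 65 (18.8%) were above the expected level in all 3 libraries at 12 h and 35 (10.1%) were below it in all 3, a family that holds Cntnap2 and Nrxn3 but neither Nrxn2 nor Nlgn1. At the 5-call minimum, which admits Nlgn1, 127 of 1027 (12.4%) were below it in all 3. The Nrxn3 gap was −1.43, 2.21 and −16.6 points, so that 1 library, 12 h C with 42 calls, set its mean of −5.28 ± 9.99 points. The 4 genes pooled had gaps of −3.87, −0.171 and −7.36 points at 12 h, with a mean of −3.80 ± 3.60, and a mean gap of 4.24 ± 3.84 points at 6 h. The pooled gap at 12 h was −2.02 points without 12 h library C and −6.11 points without Nrxn2. Within sequencing runs the pooled gap at 12 h was −20.0 points in run 1, on 48 calls, −4.09 in run 2 and −1.44 in run 3.

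**Figure D2:**
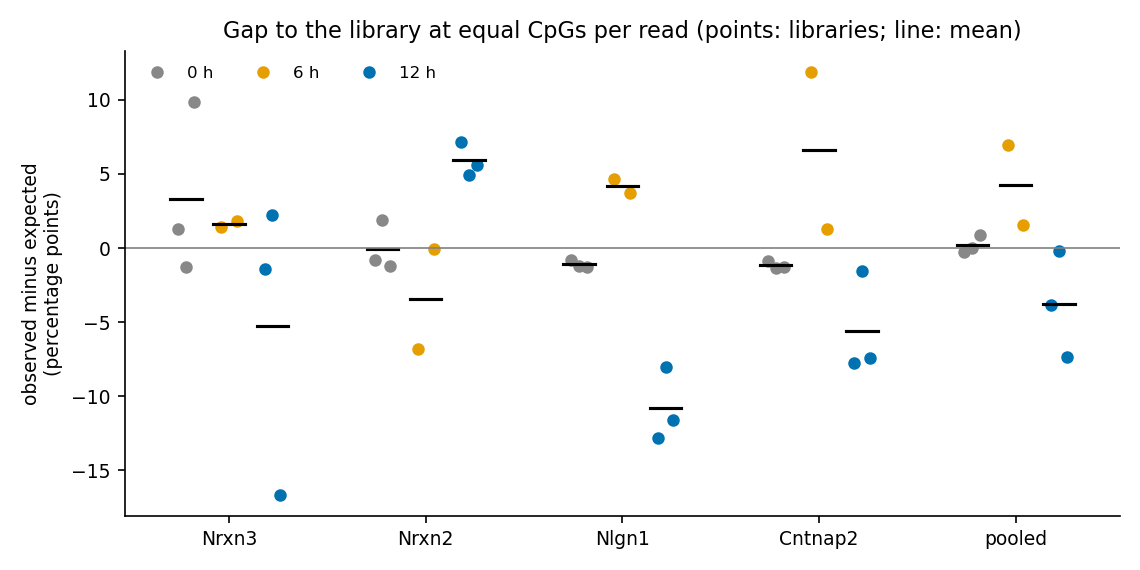
Observed minus expected level in percentage points (y axis) for each gene and for the 4 pooled (x axis), 1 point per library, grey for 0 h, orange for 6 h, blue for 12 h, with the mean as a line. At 12 h the mean gap is −10.8 points in Nlgn1, −5.57 in Cntnap2, −5.28 in Nrxn3 and 5.92 in Nrxn2.

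Neither Nrxn3 nor Cntnap2 passed the test of this deviation, nor did Nlgn1 at the 5-call minimum, and Nrxn2 was not tested. Between 12 h and 0 h the deviation was −4.24 ± 4.18 points in Nrxn3 (SE, limma, adjusted p = 0.745) and −4.15 ± 2.76 points in Cntnap2 (limma, unadjusted p = 0.165, adjusted p = 0.571). The background was low too: 3 of 346 genes, or 0.867%, passed, 0.578% upward and 0.289% downward, with 42 genes at an unadjusted p under 0.05. The 3, named after their values were seen, were Ptpn14 and Cmip, which were higher, and Rn18s-rs5, which was lower. A total of 46 genes had a lower deviation than Nrxn3 and 48 a lower one than Cntnap2, among 346 with a median of 0.621 points. Without 12 h library C the Nrxn3 deviation was −1.83 points.

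At the 5-call minimum the Nlgn1 deviation was −9.23 ± 2.67 points between 12 h and 0 h (limma, unadjusted p = 0.00780, adjusted p = 0.258), and 36 of 1027 genes had a lower one. At this minimum 0.584% of genes passed, 0.195% upward and 0.389% downward. Between 12 h and 6 h it was −14.2 ± 3.27 points (limma, unadjusted p = 0.00208, adjusted p = 0.237), and in Cntnap2 −9.54 ± 3.59 points (limma, unadjusted p = 0.0252, adjusted p = 0.379). For that contrast limma called 0 of the 346 genes at the 10-call minimum, with 34 at an unadjusted p under 0.05. That family holds Cntnap2 but not Nlgn1, and the share at the 5-call minimum is not given here. Between 6 h and 0 h the deviation was 5.02 ± 2.27 points in Nlgn1 (limma adjusted p = 0.845), 5.39 ± 2.69 in Cntnap2 (adjusted p = 0.698) and −0.434 ± 4.09 in Nrxn3 (adjusted p = 0.956).

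Nrxn3 and Cntnap2 are both very long, so they were also set among the other tested genes of at least 500 kb. Of these 108 genes, 67 had a deviation below 0, with a median of −1.21 points, against 1.64 points in the 236 shorter genes. In 21 of the 108 the deviation was lower than in Nrxn3 and in 22 lower than in Cntnap2. The values ran from −9.46 points in Opcml, a neuronal cell adhesion gene, to 6.73 points in Mecom, a transcription factor gene. None of the 108 passed the limma test.

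**Figure D3:**
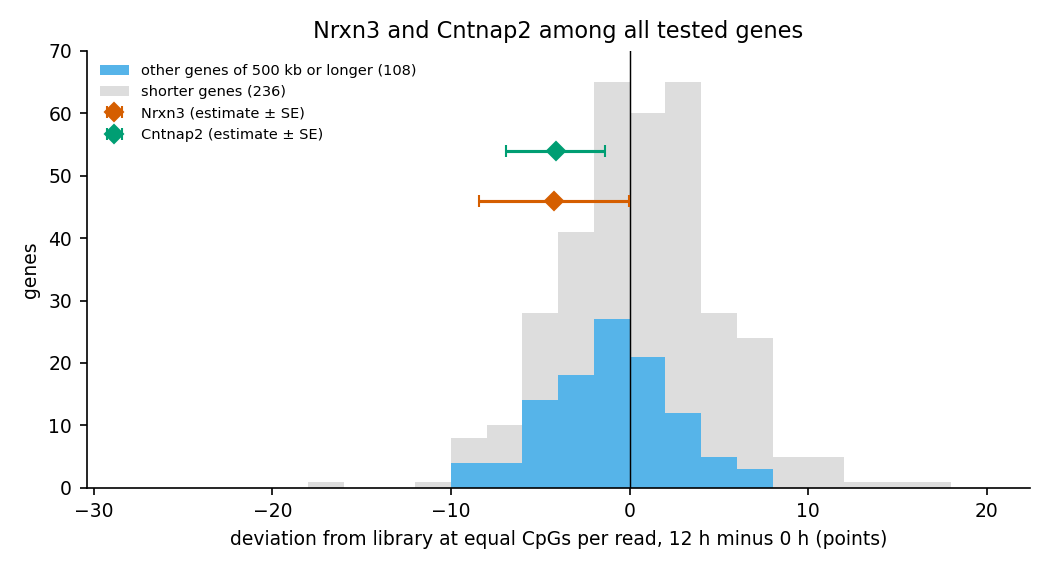
Number of genes (y axis) by deviation from the library at equal CpGs per read, 12 h minus 0 h, in percentage points (x axis), with the 108 other genes of at least 500 kb in blue and the 236 shorter genes stacked in grey. Nrxn3 (−4.24) and Cntnap2 (−4.15), drawn with their SE at arbitrary height, lie in the lower part of the distribution of long genes.

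The genes whose levels over the 8 libraries came closest to those of Cntnap2 were Kcnma1, a calcium-activated potassium channel gene, and Tshz2, a zinc finger gene, with root mean square differences of 1.80 and 2.01 points, where the median over genes was 7.72. Kcnma1 had 18.6, 23.9 and 22.4% at 12 h and 18.8 and 10.6% at 6 h. For Nrxn3 they were Ank3, which encodes the axon initial segment scaffold ankyrin-G, at 3.45 points, and Fgf12, at 4.17, where the median was 8.06. Among the 12 h libraries, Ank3 and Fgf12 were lowest in library C, at 9.52 and 14.8%. A choice by likeness to Nrxn3, itself lowest there, favours this, so it is no separate evidence. All genes share the same 8 libraries, so the likeness is a description.

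Each gene was divided into 4 segments of equal length. Along Cntnap2 the 12 h level was 9 of 46 (19.6%), 10 of 42 (23.8%), 18 of 68 (26.5%) and 15 of 105 (14.3%) in the segments from 5′ to 3′. The last segment had the lowest level at 12 h. At 6 h it held 7 of 40 (17.5%), the highest of the 4, and at 0 h 0 of 33. Of these 7 calls, 3 sat on the single read of 6 h library B described above. By library the last segment had 3 of 47, 9 of 39 and 3 of 19 calls undeaminated at 12 h, and 3 of 15 and 4 of 25 at 6 h, so 1 of the 12 h libraries lay above both 6 h libraries. Its deviation between 12 h and 0 h was −9.65 ± 3.63 points (limma, unadjusted p = 0.0296, adjusted p = 0.318 over 220 segments). The segment passed only when 12 h library B was left out (−14.9 points, limma adjusted p = 0.0459), and its deviation was −4.03 points without 12 h library A. Among the 220 segments, 1 (0.455%) passed and 27 had an unadjusted p under 0.05.

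Between 12 h and 6 h the last segment of Cntnap2 deviated by −21.6 ± 4.56 points (limma, unadjusted p = 0.00160, adjusted p = 0.121), and between 6 h and 0 h by 11.9 ± 3.43 points (limma adjusted p = 0.636). Both values rest in part on 1 read, which carried 3 of the segment's 4 undeaminated calls in 6 h library B. Of the 220 segments, 1 (0.455%) passed between 12 h and 6 h, and 0 passed between 6 h and 0 h.

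In Nrxn3 the segments from 5′ to 3′ had 17 of 66 (25.8%), 11 of 70 (15.7%), 23 of 84 (27.4%) and 10 of 51 (19.6%) at 12 h. The second segment, the lowest at 12 h, held all 3 untreated undeaminated calls of the gene, 3 of 18, on reads 462.9 to 464.6 kb from the 5′ end in untreated libraries A and C. The third segment, which holds the internal start printed above, was the only one of Nrxn3 with enough calls to test, and its deviation was 4.54 ± 3.46 points (limma adjusted p = 0.654).

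The Nlgn1 segments had 3 of 28 (10.7%), 6 of 23 (26.1%), 3 of 39 (7.69%) and 4 of 25 (16%) at 12 h. The gaps to the level expected for each segment were −13.7, 1.29, −15.1 and −9.39 points, so all but the second lay below it. In Nrxn2, by genome coordinate, the first segment had 9 of 52 (17.3%) and the others 9 of 26 (34.6%), 9 of 26 (34.6%) and 12 of 38 (31.6%). The level expected for the first segment was only 16.81%, so its gap was 0.4934 points. The gaps of the other Nrxn2 segments were 9.002, 9.443 and 8.442 points. The first segment was thus lowest in level but not below its expected level. The 95% Wilson intervals of the segments overlapped within each of these genes, and segments of Nlgn1 and Nrxn2 had too few calls to test.

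**Figure D4:**
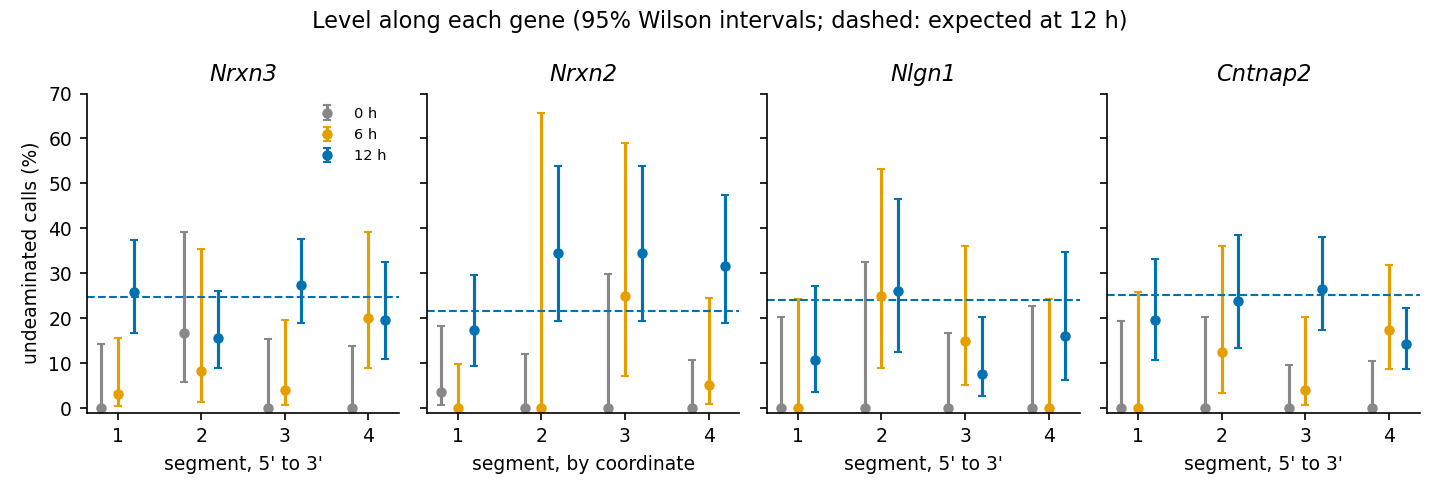
Percentage of undeaminated calls (y axis) in each segment of the 4 genes (x axis) at 0 h (grey), 6 h (orange) and 12 h (blue), calls pooled over libraries, with 95% Wilson intervals and a dashed line at the level expected for the gene at 12 h. The last segment of Cntnap2 stands at 14.3% at 12 h and 17.5% at 6 h.

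Nrxn2 differs from the other 3 genes in its CpG-dense reads. Reads of 11 or more CpGs carried 28.5% of its calls, against 7.41% of all calls, and 0 of these 86 calls on 5 reads were undeaminated over all times. At 12 h this was 0 of 24 Nrxn2 calls, which allows up to 12.5%, against 6.11 ± 1.45% for such calls in the libraries, so a difference was not detectable at this depth. Of the 5 reads, 3, found 1 each in untreated C, 6 h B and 12 h C, lay 9.54 to 10.1 kb from the lower-coordinate end, with 59 calls. On reads of 10 CpGs or fewer, Nrxn2 had 31.1, 30.8 and 42.9% at 12 h, 39 of 118 in all (33.1%, Wilson interval 25.2 to 42.0%), against 25.5 ± 2.41% in the libraries. All 3 Nrxn2 values lay above that mean. Within 1 kb on either side of the lower-coordinate end of Nrxn2, 3 of 29 calls at 12 h were undeaminated, all on 1 read outside the span, at positions −891 to −855 from that end.

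On reads of 4 to 10 CpGs at 12 h, Nrxn2 had 13 of 30 calls undeaminated (43.3%), Nrxn3 7 of 37 (18.9%) and Nlgn1 2 of 18 (11.1%). Cntnap2 had 0 of 22, which allows up to 13.6%. The libraries had 24.7 ± 2.28% on such reads. The Nrxn2 share came from 8 of 11 calls in 12 h library A and 5 of 19 in 12 h library B. On reads of 1 to 3 CpGs the shares were 26 of 88 (29.5%) in Nrxn2, 54 of 234 (23.1%) in Nrxn3, 52 of 239 (21.8%) in Cntnap2 and 14 of 97 (14.4%) in Nlgn1, against 25.9 ± 2.47% in the libraries. With calls pooled over libraries, Nlgn1 was thus lowest on sparse reads too. In 12 h library C, however, it had 2 of 7 on such reads, above 4 of 38 in Nrxn3 and 13 of 57 in Cntnap2. Calls on 1 read are not independent, and the intervals and limits cover counting error only.

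At 12 h, 170 reads in the members held at least 2 calls. All calls were undeaminated on 12 of them (7.06%), some on 55 (32.4%) and none on 103 (60.6%), against 6.79, 40.7 and 52.5% of all such reads. These shares depend on the number of calls per read and were not matched for it, so the difference is not read further. Reads with no undeaminated call made up 20 of 27 in Nlgn1, 35 of 58 in Nrxn3, 29 of 50 in Cntnap2 and 19 of 35 in Nrxn2.

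**Figure D5:**
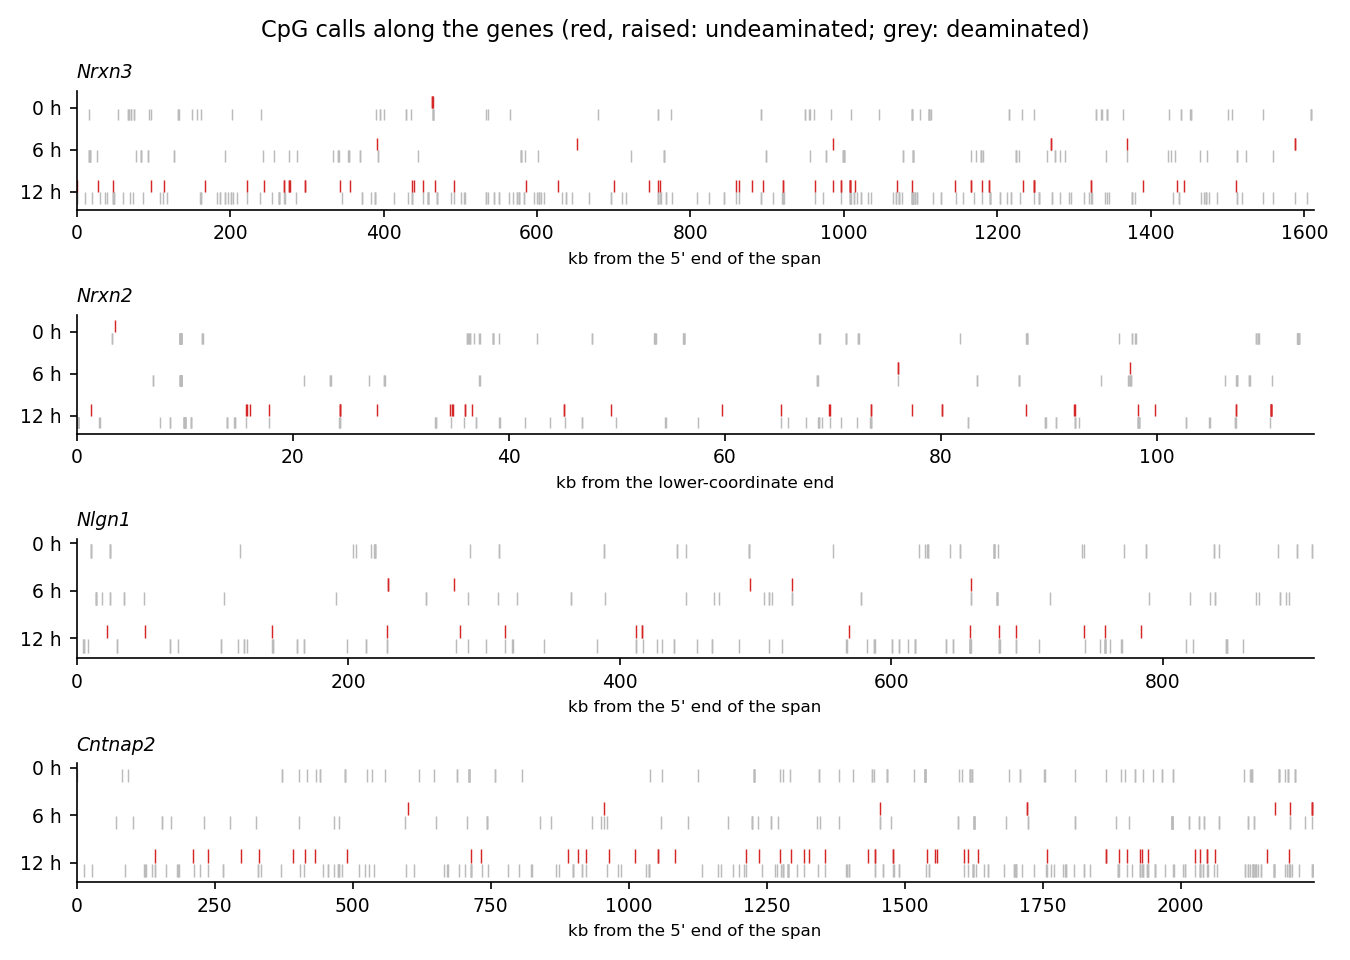
Position of each call in kb from the 5′ end of the gene, or from the lower-coordinate end in Nrxn2 (x axis), at 0, 6 and 12 h (y axis), with undeaminated calls raised in red and deaminated calls in grey. The 4 undeaminated calls of the untreated libraries lie at 2 places, near 463 to 465 kb in Nrxn3 and at 3.58 kb in Nrxn2.

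Coverage was thin and scattered. The 1431 calls fell on 1388 CpG positions, of which 1349 were seen in 1 library. Of the 7 positions seen in at least 2 of the 12 h libraries, none was undeaminated in more than 1, so no single CpG of these genes can be followed.

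The ligands and partners of the 4 proteins were taken as a list of 42 genes, all matched in the gene table. Only 4 had 10 calls in every library, and all 4 rose, against 95.7% of tested genes. None of the 4 passed the limma test of the deviation, whose median over them was 1.1 points, against 0.621 over all tested genes, and 1 had an unadjusted p under 0.05. Shank2, a postsynaptic scaffold gene, reached 28.8 ± 3.27% at 12 h and rose by 2.40 points per hour (exact permutation adjusted p = 0.00870). Magi2, another scaffold gene, reached 22.8 ± 4.01% and rose by 1.66 points per hour (exact permutation adjusted p = 0.0148). Apba2, which encodes an adaptor that binds neurexin inside the cell, reached 27.28 ± 12.98% (slope 2.27, exact permutation adjusted p = 0.0183). Dlg2, which encodes a postsynaptic scaffold that binds neuroligins, reached 16.7 ± 4.04% (slope 1.11, exact permutation adjusted p = 0.0379) and had a deviation of −8.07 ± 2.29 points (limma, unadjusted p = 0.00611, adjusted p = 0.231).

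The 42 partners together had a level of 1.91% at 0 h, 5.93% at 6 h and 23.55 ± 1.03% at 12 h, where 24.1% was expected. The neuroligin genes Nlgn2 and Nlgn3 together had 8 of 28 calls undeaminated at 12 h (28.6%), where 23% was expected at equal CpGs per read. Nlgn2 had 8 of 17 of these calls and Nlgn3 0 of 11. The 9 other postsynaptic neurexin ligands, among them the leucine-rich repeat proteins Lrrtm1 to Lrrtm4 and the latrophilins, had 140 of 541 (25.9%), where 24.1% was expected. The 9 secreted ligands, cerebellins, neurexophilins and C1q-like proteins, had 17 of 182 (9.34%), where 16.1% was expected. C1ql2 alone, named after its counts were seen, gave 0 of 51 of these calls. The 3 intracellular partners of neurexin had 77 of 290 (26.6%), where 24.4% was expected, and the 7 postsynaptic scaffold genes 298 of 1249 (23.9%), where 23.7% was expected.

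The Mdga genes, whose proteins block neuroligin binding, had 37 of 198 (18.7%) at 12 h, where 21.4% was expected. Cntnap2 had 52 of 261 (19.9%), against 123 of 576 (21.4%) in the 6 other contactin-associated protein genes, where 24.2% was expected. The 4 genes for partners of Cntnap2 at the axon, Cntn2, Epb41l3, Kcna1 and Kcna2, had 67 of 222 (30.2%), where 24.0% was expected. These shares pool calls over libraries, carry no test, and rest mostly on genes with few calls.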

How the data were processed

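Per the file headers, the deposited files were written by Bismark's methylation extractor, version 0.22.3, and list each CpG of each read on a line. The other unit is a call letter deposited by the authors, undeaminated or deaminated. Per the submitters' processing notes, Trim Galore, Bismark 0.22.3 and GRCm38 were used, and duplicate removal is not given in the sources used here. The libraries, from 10 ng of DNA cut to about 300 bp, were sequenced over 3 runs of 150 bp, per the labels' protocols.

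Groups and letters come from the sample titles. Calls were assigned to spans of the GRCm38.p6 gene table. The members and lists were chosen with earlier results of these data known. One gene of the partner list is not reported here and was left out of that list's values. A gene was tested where each library had 10 or more calls in it (346 genes), and 1 of the 4 equal segments of a gene where each had 5 or more (220). The rise is the slope of the level on hours, with a two-sided exact permutation test over all distinct assignments of the 8 libraries (smallest p 0.00357). The deviation is the observed level minus the level expected from the library in 7 classes of CpGs per read (1, 2, 3, 4 to 5, 6 to 7, 8 to 10, and 11 or more). It was fitted with limma 3.58.1 in R 4.3.3, weighted by calls, with a factor of 3 times. Both were adjusted by Benjamini-Hochberg over the whole family at a threshold of 0.05. The deviation fit was checked on simulated data. Libraries share 1 estimate of the spread. Pooled levels of the members were not tested. Intervals are Wilson intervals at 95%, and the limit beside a count of 0 is 3 counts over the total.

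Genes named beside the members are the partners that passed the minimum, the 2 genes nearest to each tested member and the extremes of the tested genes of at least 500 kb. Other partners are named with counts only. Alternatives were other minimums, 1 call per read, no identical reads, the overall library level, median centring, no weights, a logit scale, limma for the rise, a replicate block, each sequencing run, and leaving out each library or member.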

Additional observations from a re-analysis of the deposited data

How the results depend on the processing

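Of 156 alternative values over 11 results, 129 kept their direction and their side of the threshold or size, and 0 reversed. The deviations of Nrxn3 and Cntnap2 stayed below 0 and uncalled throughout, at −8.57 to −1.83 points and −6.58 to −2.59 points, and at −1.54 and −0.565 on the logit scale (limma adjusted p 0.623 to 0.863 and 0.433 to 0.829). The rise of Nrxn3 ran from 1.04 to 1.62 points per hour and that of Cntnap2 from 1.57 to 1.86 over the left-out libraries. The labels do not say whether a letter links libraries across times, and deviations of 0 h and 12 h libraries with the same letter correlated at −0.0361, −0.146 and −0.102, so no pairing was assumed. With a replicate block, which allows few arrangements, the exact permutation adjusted p was 0.0576 for Nrxn3 (1.32 points per hour) and 0.0630 for Cntnap2 (1.66), and 0 genes rose. The number of rising genes was 210 to 474 without 1 library, 86 at a minimum of 20 calls and 883 at 5, the last 2 over fewer and more genes tested. The number of deviating genes (limma) was 0 to 5 without 1 library, 0 with 1 call per read, 0 on the logit scale, 6 at a minimum of 5 calls, and 7 against the overall library level and with median centring. Deviating gene segments numbered 1 to 13 without 1 library and 12 against the overall level. The last segment of Cntnap2 deviated by −14.9 to −4.03 points. Within sequencing run 1 the pooled level at 12 h was 5.50% and its gap −20.0 points, on 48 calls. Causes of these changes were not tested unless stated. Few calls per gene and library limit what could be detected.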
